A study of Mus musculus with 12 samples.

Results

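The 33 genes described here encode the enzymes of fatty acid oxidation and a set of target genes of PPARA, the nuclear receptor that switches this programme on in the liver. They were taken as a named list, which was drawn up with earlier results of these data known, as were the roles by which the genes are grouped below. All 33 were found by symbol among the 11791 genes of the deposited table, and none was removed by the filter on low signal. RNA was sequenced from whole liver of male mice aged 10 weeks that had been fed an MCD diet (deficient in methionine and choline, a diet that gives steatohepatitis in mice) for 3 weeks. Each library held RNA from 2 animals mixed in equal parts, and the 12 libraries formed 3 groups of 4 such pools. The control animals carried Lyzs cre, a Cre recombinase driven by the lysozyme gene of myeloid cells. The KO animals are labelled Lyzs p38g/d KO, for the kinases p38γ and p38δ under this myeloid Cre, so hepatocytes were not the target. The anti-Ly6G animals were of the control genotype and received the antibody to Ly6G, which sits on the surface of neutrophils; their sample titles read GR1. All libraries carry the strain label C57BL/6. A mitochondria label, which belongs to a description of conplastic mice (nuclear genome of one strain, mitochondrial DNA of another), divides the KO group: KO 1 and KO 2 read C57, as every control pool does, and KO 3 and KO 4 read NZB, as every anti-Ly6G pool does. Anti-Ly6G treatment and the NZB label therefore cannot be told apart in the comparison with control. The labels speak of 12 males in each genotype although 4 pools of 2 hold fewer, and no label says that the pools hold separate animals, so p-values measure the spread between these pools.

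In the liver, fatty acids are activated to acyl-CoA, carried into mitochondria as carnitine esters, and shortened in cycles of dehydrogenation, hydration, a further dehydrogenation and thiolysis. Very long chains are shortened first in peroxisomes, and double bonds need auxiliary isomerases and reductases. PPARA, in a dimer with the retinoid receptor RXR, binds direct repeats of a hexamer and drives many of these genes in fasting, when the liver turns acetyl-CoA into ketone bodies and secretes the hormone FGF21.

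The libraries held 13127902 to 22250697 reads, and the lowest number of reads of any of the 33 genes in any library was 270. All 15 hepatocyte markers were measured, with a summed signal of 132740 to 186850 RPM (a reads-per-million value scaled between libraries). Mapk12, which encodes p38γ, lay at 2.17 ± 0.397 RPM in control and 2.30 ± 0.694 RPM in KO (SD, n = 4 each). That difference did not pass the test (limma, adjusted p = 0.922). The KO pools were not alike, with KO 1 and KO 2 at 1.63 and 1.79 RPM and KO 3 and KO 4 at 2.70 and 3.06 RPM. KO 1 lay below all control pools and KO 4 above them, while KO 2 and KO 3 lay among them. In these whole-liver libraries, in which myeloid cells are a minor part, the level of Mapk12 thus did not show the labelled deletion. Mapk13, which encodes p38δ, was not analysed here. Levels are in RPM as scaled by the authors, and values after ± on levels are SDs of 4 pools. A gene was called where limma's adjusted p (Benjamini-Hochberg over 11791 genes) was under 0.05, and fold changes are on the log2(RPM + 0.5) scale.

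Promoters of 28 of the 33 genes were found in the RefSeq table (GRCm38.p6), 30 promoters in all, each of 300 bases from 250 before the start to 50 after it. The hexamer AGGTCA was searched on both strands, as was a direct repeat of it with 1 base between the copies (DR1), allowing 2 mismatches in the 12 bases of the hexamers. The exact hexamer stood in 3 of the 30 promoters (10%), those of Cpt1a, Acadm and Acadvl, against 16.3% of all 32851 promoters. A DR1 match stood in 2 (6.67%), those of Slc25a20 and Etfa, against 3.86% of all. The letters TTGCATCA, an element bound by C/EBP and ATF factors that was searched after the values were seen, stood only in the promoter of Fgf21 among these 30, and in 0.895% of all promoters. A match is a run of letters and not a measured site, and matches of the hexamer inside a DR1 are counted in both. The promoters shown are those of 4 genes described in full below, 5′ to 3′ on the gene's own strand, with matches in capitals. In Fgf21 the capitals mark TTGCATCA, whose first base lies at position -139 from the start. In Cpt1a they mark the hexamer on the opposite strand at -94. Eci1 and Pdk4 held none of the 3 motifs in this window.
Fgf21 (chr7:45615441-45615740, minus strand): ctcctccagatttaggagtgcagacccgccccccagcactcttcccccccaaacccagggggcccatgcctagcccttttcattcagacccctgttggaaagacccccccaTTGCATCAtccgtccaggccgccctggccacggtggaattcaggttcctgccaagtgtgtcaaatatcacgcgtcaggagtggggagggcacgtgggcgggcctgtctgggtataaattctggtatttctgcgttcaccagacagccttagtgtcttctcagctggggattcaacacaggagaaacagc
Eci1 (chr17:24426433-24426732, plus strand): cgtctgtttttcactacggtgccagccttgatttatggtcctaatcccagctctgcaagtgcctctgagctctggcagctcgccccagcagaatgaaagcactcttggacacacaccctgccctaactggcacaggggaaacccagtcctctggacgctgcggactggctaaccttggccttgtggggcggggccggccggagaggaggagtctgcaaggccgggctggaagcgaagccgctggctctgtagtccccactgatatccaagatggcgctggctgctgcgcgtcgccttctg
Pdk4 (chr6:5496229-5496528, minus strand): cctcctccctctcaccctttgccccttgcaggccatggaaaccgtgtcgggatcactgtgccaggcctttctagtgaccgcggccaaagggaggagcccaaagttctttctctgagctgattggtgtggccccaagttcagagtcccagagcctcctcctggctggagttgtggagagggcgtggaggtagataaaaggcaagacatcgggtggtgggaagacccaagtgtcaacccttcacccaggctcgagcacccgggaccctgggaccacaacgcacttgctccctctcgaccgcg
Cpt1a (chr19:3323051-3323350, plus strand): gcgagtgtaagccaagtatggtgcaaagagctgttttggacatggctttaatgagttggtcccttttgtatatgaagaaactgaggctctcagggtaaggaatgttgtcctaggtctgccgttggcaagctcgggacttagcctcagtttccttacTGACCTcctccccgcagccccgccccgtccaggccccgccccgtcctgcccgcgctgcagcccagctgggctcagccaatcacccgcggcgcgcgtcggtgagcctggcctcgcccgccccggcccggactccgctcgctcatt

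Per kilobase of the principal transcript, a pair of peroxisomal enzymes had the highest levels of the 33 genes in control liver. Acaa1b, a peroxisomal thiolase, stood at 1249 RPM per kb and Ehhadh, the peroxisomal bifunctional enzyme, at 731 RPM per kb. The other peroxisomal beta-oxidation genes, Hsd17b4 and Acaa1a, were lower, at 229 and 216 RPM per kb. The mitochondrial thiolase Acaa2 came next after Ehhadh at 506 RPM per kb, then the acyl-CoA synthetase Acsl1 at 428 and the peroxisomal octanoyltransferase Crot at 422 RPM per kb. The hormone gene Fgf21 was at 19.8 RPM per kb, the kinase gene Pdk4 at 18.5 and the thioesterase gene Acot2 at 16.3 RPM per kb. Acadsb, the dehydrogenase for short branched chains, was the lowest at 8.67 RPM per kb. Replicate pools varied little for these genes. The median coefficient of variation of the 33 was 6.61% among the control pools, 7.39% among the KO pools and 7.84% among the anti-Ly6G pools, against 10.0%, 9.17% and 12.4% over all genes. The widest spread was in the KO group, where it reached 43.8% for Pdk4.

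The genes that no comparison with control called were described first by their means. Of the carnitine system, Slc25a20, the carrier of the inner membrane, was at 184 ± 8.09 RPM in control, 174 ± 11.7 RPM in KO and 169.6 ± 6.07 RPM in anti-Ly6G. Cpt2, which releases acyl-CoA in the matrix, was at 182 ± 15.2 RPM in control, 192 ± 12.5 RPM in KO and 177 ± 16.2 RPM in anti-Ly6G. Crat, the acetyltransferase, was at 198 ± 6.81 RPM in control, 210.2 ± 19.6 RPM in KO and 201 ± 19.5 RPM in anti-Ly6G. None of these 3 genes was called, and their groups overlapped. Crot was at 1265 ± 115 RPM in control, 1332 ± 103 RPM in KO and 1407 ± 315 RPM in anti-Ly6G, and its wide SD in anti-Ly6G came with 1 pool (anti-Ly6G 4) at 973 RPM, below the other 11 pools.

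Of the dehydrogenases that open each cycle, Acadvl for very long chains was at 599 ± 27.7 RPM in control, 593 ± 20.5 RPM in KO and 636 ± 42.9 RPM in anti-Ly6G. Acadl for long chains was at 421 ± 21.2 RPM in control, 422 ± 19.6 RPM in KO and 429.9 ± 47.9 RPM in anti-Ly6G. Acadm for medium chains was at 673 ± 65.4 RPM in control, 767 ± 34.4 RPM in KO and 757 ± 28.3 RPM in anti-Ly6G. The role of the last of them, Acads, is in short chains, and it was at 211 ± 6.69 RPM in control, 206 ± 12.2 RPM in KO and 221 ± 29.9 RPM in anti-Ly6G. Acadm had the largest difference of these 4, with means higher in KO and in anti-Ly6G than in control. Hadha, the subunit of the trifunctional protein that hydrates and dehydrogenates, was at 640.5 ± 27.6 RPM in control, 692 ± 75.4 RPM in KO and 665 ± 65.5 RPM in anti-Ly6G. Acaa2 was at 768 ± 37.8 RPM in control, 729.9 ± 23.4 RPM in KO and 788 ± 45.3 RPM in anti-Ly6G.

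The flavoprotein subunit Etfa was at 328 ± 30.6 RPM in control, 328 ± 13.8 RPM in KO and 344 ± 24.7 RPM in anti-Ly6G. Its partner Etfb was at 304 ± 16.4 RPM in control, 299 ± 13.3 RPM in KO and 340.2 ± 24.3 RPM in anti-Ly6G. The oxidoreductase Etfdh, which hands the electrons to ubiquinone, was at 623 ± 39.9 RPM in control, 577 ± 46.5 RPM in KO and 595 ± 42.8 RPM in anti-Ly6G. The groups overlapped for all 3. Decr1 was at 319 ± 23.1 RPM in control, 329 ± 27.6 RPM in KO and 359 ± 28.1 RPM in anti-Ly6G. The peroxisomal thiolase Acaa1a was at 381 ± 21.8 RPM in control, 358 ± 28.2 RPM in KO and 357 ± 27.97 RPM in anti-Ly6G. Its near copy Acaa1b was at 2109 ± 225 RPM in control, 1827 ± 249 RPM in KO and 2065 ± 254 RPM in anti-Ly6G. Sequence sharing limits some of these levels. In 19 of the 33 genes at least 90% of the 25-base words of the transcripts were unique to the gene. The share was 48.4% for Etfb, 64.8% for Acadvl, 74.5% for Hadhb and 79.6% for Eci2, and these levels are less certain. Of the genes called below in anti-Ly6G against control, Acsl1 (89.7%), Bdh1 (87.0%) and Decr2 (86.3%) also lay under 90%.

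**Figure D1:**
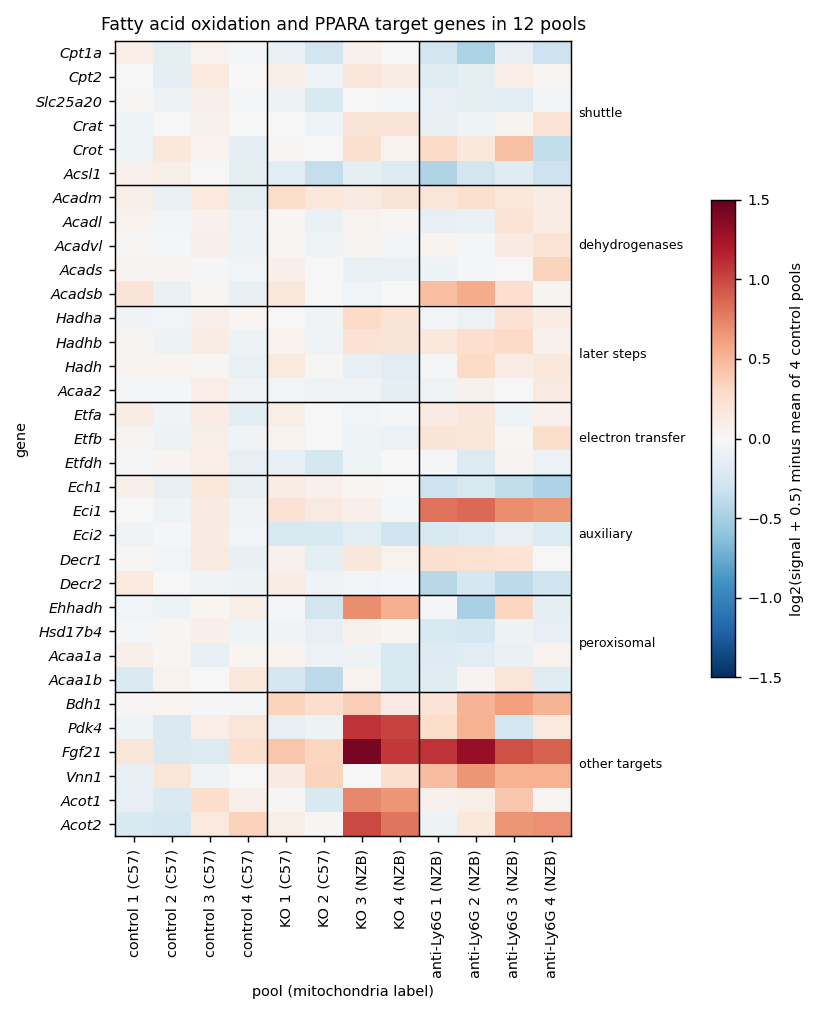
Difference of log2(RPM + 0.5) from the mean of the 4 control pools (colour) for the 33 genes (vertical axis, grouped by role) in 12 pools (horizontal axis, with mitochondria label). Eci1, Fgf21 and Vnn1 are high across the anti-Ly6G pools, while Pdk4, Acot1, Acot2 and Ehhadh are high in KO 3 and KO 4 and not in KO 1 and KO 2.

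The pools labelled KO were compared with the Cre control. None of the 33 genes was called by limma, against 1.12% of all genes (0.585% higher and 0.534% lower), although 5 had an unadjusted p under 0.05, as did 18.9% of all genes. edgeR's quasi-likelihood test on the recovered reads called 0 of the 33 as well, and DESeq2 called 3, with Fgf21 and Bdh1 higher and Eci2 lower. Over all 11791 genes edgeR called 153 and DESeq2 577. With limma 69 of all genes were higher and 63 lower, a split that became 123 and 37 when the libraries were scaled to equal sums. Leaving out 1 pool gave between 3 (without control 2) and 319 (without control 4) genes in all. The median log2 fold change was 0.030 over the 33 genes and -0.0013 over all genes. The 4 KO pools did not overlap the 4 control pools for 3 genes (Fgf21 and Bdh1 above, Eci2 below), against 12.4% of all genes (5.73% above and 6.62% below).

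Fgf21 (ENSMUSG00000030827, chr7:45613886-45615490, minus strand, GRCm38), the fasting hormone of the liver, was at 21.1, 15.9, 16.0 and 22.2 RPM in control pools 1 to 4 and at 25.03, 23.3, 50.8 and 39.5 RPM in KO pools 1 to 4. All KO pools lay above all control pools, and KO 3 and KO 4 lay well above KO 1 and KO 2. The log2 fold change was 0.81 ± 0.21 (SE) with an adjusted p of 0.0728 (limma). With KO 1 and KO 2 alone it was 0.37 (adjusted p = 0.313, limma). DESeq2 gave 0.88 with an adjusted p of 0.00396.

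Bdh1, the mitochondrial dehydrogenase that interconverts the ketone bodies, was at 314, 317, 303 and 307 RPM in control and at 392, 372, 399 and 337 RPM in KO. The groups were apart, and the log2 fold change of 0.27 ± 0.087 (SE) had an adjusted p of 0.126 (limma). Eci2, an isomerase for unsaturated chains found in peroxisomes, was at 317, 321, 357 and 319 RPM in control and at 278, 279, 293 and 268 RPM in KO. Every KO pool was below every control pool, with a log2 fold change of -0.23 ± 0.062 (SE) and an adjusted p of 0.0797 (limma). Acsl1 and Acadm, the medium-chain dehydrogenase, were the other genes with an unadjusted p under 0.05, at log2 fold changes of -0.22 and 0.19, and their groups overlapped.

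The remaining log2 fold changes lay between -0.21 (Acaa1b) and 0.47 (Acot2). Of the enzymes that carry the mitochondrial cycle itself, the carnitine transferases Cpt1a and Cpt2 differed by -0.076 and 0.077, the very-long-chain dehydrogenase Acadvl by -0.013, and the trifunctional protein subunits Hadha and Hadhb by 0.11 and 0.10. Decr2, the peroxisomal dienoyl-CoA reductase, had means of 259 ± 18.5 RPM in control and 258 ± 14.5 RPM in KO. These values lie within or near the spread of the pools.

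**Figure D2:**
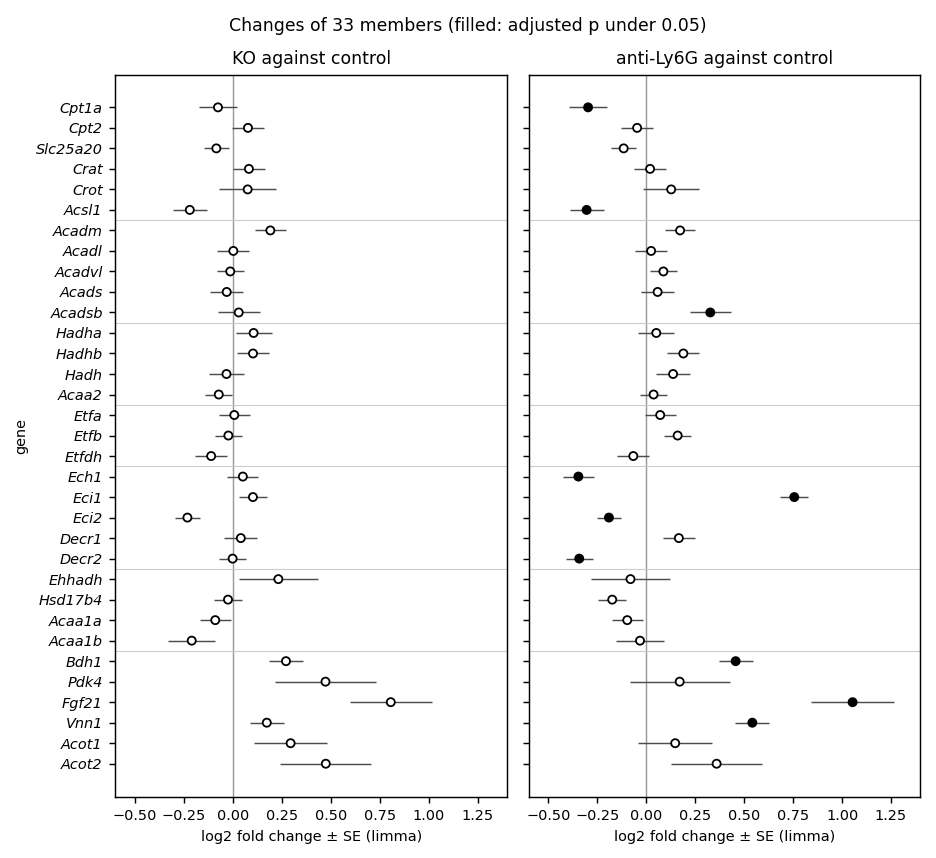
Log2 fold change with its standard error (horizontal axis) for each of the 33 genes (vertical axis, by role) in KO against control (left) and anti-Ly6G against control (right). Filled points passed an adjusted p of 0.05: 0 genes on the left and 10 on the right.

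Pools given the antibody against Ly6G were then compared with the same control pools. Among the 10 genes called, the largest rise was in Fgf21, at 2.08 times the control level, followed by Eci1, Vnn1, Bdh1 and Acadsb, while Decr2, Ech1, Acsl1, Cpt1a and Eci2 fell. Without anti-Ly6G pool 1 the number called was 6. These 10 genes of 33 (30.3%) stood beside 30.4% of all genes called, a share close to that of the whole table. Higher and lower calls were 5 each, beside 15.1% higher and 15.3% lower over all genes (1775 and 1805 genes, or 1267 and 1977 with libraries scaled to equal sums). The median log2 fold change was 0.058 over the 33 and -0.0022 over all genes. At an unadjusted p under 0.05 stood 14 of the 33 and 42.3% of all genes. The pools did not overlap for 9 genes (4 above, 5 below), against 27.3% of all genes (14.2% above and 13.1% below).

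Of the 5 auxiliary enzymes for unsaturated fatty acids, 1 rose, 3 fell and 1 was not called. Over all genes 15.1% were higher and 15.3% lower. Eci1 (ENSMUSG00000024132, chr17:24426641-24439348, plus strand, GRCm38), the mitochondrial enoyl-CoA isomerase, was at 143, 138, 157 and 138 RPM in control, 167, 157, 152 and 143 RPM in KO and 252, 260.5, 233 and 229 RPM in anti-Ly6G. The anti-Ly6G pools all lay above the other 8 pools, which overlapped each other. The log2 fold change against control was 0.76 ± 0.072 (SE) with an adjusted p of 1.27e-05 (limma).

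Ech1, the dienoyl-CoA isomerase, was at 446, 386, 469 and 390.4 RPM in control and 339, 357, 325 and 306 RPM in anti-Ly6G. Decr2 was at 285, 256, 249 and 244 RPM in control and 193, 215, 197 and 210.0 RPM in anti-Ly6G. For both genes all anti-Ly6G pools were below all control pools. The log2 fold changes were -0.35 ± 0.078 (SE) for Ech1 and -0.34 ± 0.07 (SE) for Decr2, with adjusted p-values of 0.00524 and 0.00296 (limma). Eci2 was at 278, 285, 302 and 285 RPM in anti-Ly6G, again below all control pools, with a log2 fold change of -0.19 ± 0.062 (SE) and an adjusted p of 0.0334 (limma). Its call was lost in 4 of the 8 fits that left out 1 pool, where the pool dropped was anti-Ly6G 1, anti-Ly6G 2, control 2 or control 3. Decr1, the mitochondrial dienoyl-CoA reductase, was not called, with a log2 fold change of 0.17. Of the isomerases, Eci1 was higher while Eci2 and Ech1 were lower, and the peroxisomal reductase Decr2 was lower as well.

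Of the 6 genes for activation and the carnitine shuttle, 2 fell and none rose, beside 15.3% lower and 15.1% higher over all genes. Cpt1a (ENSMUSG00000024900, chr19:3322334-3385733, plus strand, GRCm38), the carnitine palmitoyltransferase that limits the rate of entry and is a classical PPARA target, was at 1026, 875, 998 and 943 RPM in control, 897, 793, 1005 and 957 RPM in KO and 789, 689, 882 and 771 RPM in anti-Ly6G. Control 2 and anti-Ly6G 3 overlapped, and the other pools were apart. Its log2 fold change was -0.30 ± 0.10 (SE) with an adjusted p of 0.0316 (limma), a call kept in 2 of the 8 fits that left out 1 pool, those without control 2 or anti-Ly6G 3. Acsl1, which activates long chains, was at 1734, 1773, 1652 and 1512 RPM in control, 1475, 1296, 1516 and 1439 RPM in KO and 1216, 1379, 1465 and 1342 RPM in anti-Ly6G. The anti-Ly6G pools were below the control pools, with a log2 fold change of -0.30 ± 0.087 (SE) and an adjusted p of 0.018 (limma). This call was lost without control 2 and without anti-Ly6G 1. The carnitine carrier Slc25a20, Cpt2, Crat and Crot were not called, with log2 fold changes of -0.12, -0.047, 0.019 and 0.13.

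Of the 5 acyl-CoA dehydrogenases, only Acadsb was called, beside 30.4% of all genes. It was at 60.0, 49.1, 53.2 and 48.4 RPM in control and 72.3, 77.4, 62.9 and 53.9 RPM in anti-Ly6G. Anti-Ly6G 4 fell among the control pools and the other 3 were above them. The log2 fold change was 0.33 ± 0.11 (SE) with an adjusted p of 0.0323 (limma), and the call held in 3 of the 8 fits that left out 1 pool, those without control 1, anti-Ly6G 3 or anti-Ly6G 4. Acadl, Acadvl, Acadm and Acads had log2 fold changes of 0.025 to 0.17. Among the later steps, Hadhb was at 525, 480.4, 549 and 482 RPM in control and 567, 604, 618 and 533 RPM in anti-Ly6G, and its log2 fold change of 0.19 ± 0.081 (SE) had an adjusted p of 0.0929 (limma). Hadha, Hadh and Acaa2 lay at 0.051, 0.14 and 0.037. The electron transfer genes Etfa, Etfb and Etfdh, which pass electrons from the dehydrogenases to the respiratory chain, were not called, at 0.071, 0.16 and -0.066.

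None of the 4 enzymes of the peroxisomal beta-oxidation cycle in the list was called, beside 30.4% of all genes. Decr2 and Eci2, auxiliary enzymes found in peroxisomes, were lower as given above. Hsd17b4, the second peroxisomal bifunctional enzyme, was at 602, 620.2, 646 and 587 RPM in control and 524, 510.4, 581 and 562 RPM in anti-Ly6G. Its pools were apart, but its log2 fold change of -0.17 ± 0.07 (SE) had an adjusted p of 0.0757 (limma). Ehhadh and the thiolases Acaa1a and Acaa1b had log2 fold changes of -0.081, -0.10 and -0.032. The thiolases share sequence: 46.0% of the 25-base words of Acaa1b and 73.9% of those of Acaa1a were unique in the transcript set, so their levels are uncertain.

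Of the 6 other PPARA targets, 3 rose and none fell, beside 15.1% higher and 15.3% lower over all genes. Fgf21 was at 39.96, 46.6, 36.4 and 34.7 RPM in anti-Ly6G pools 1 to 4, all above the control pools, with a log2 fold change of 1.05 ± 0.21 (SE) and an adjusted p of 0.00257 (limma). Vnn1, the pantetheinase vanin, was at 139.6, 173, 146 and 151 RPM in control, 166, 192, 151 and 179.6 RPM in KO and 209.8, 241, 218 and 219 RPM in anti-Ly6G. The anti-Ly6G pools were above all other pools, and the log2 fold change against control was 0.54 ± 0.086 (SE) with an adjusted p of 0.000655 (limma). Bdh1 was at 357, 440.4, 475 and 441 RPM in anti-Ly6G, above all control pools, with a log2 fold change of 0.46 ± 0.087 (SE) and an adjusted p of 0.00198 (limma). Pdk4, Acot1 and Acot2 were not called, with log2 fold changes of 0.17, 0.15 and 0.36.

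**Figure D3:**
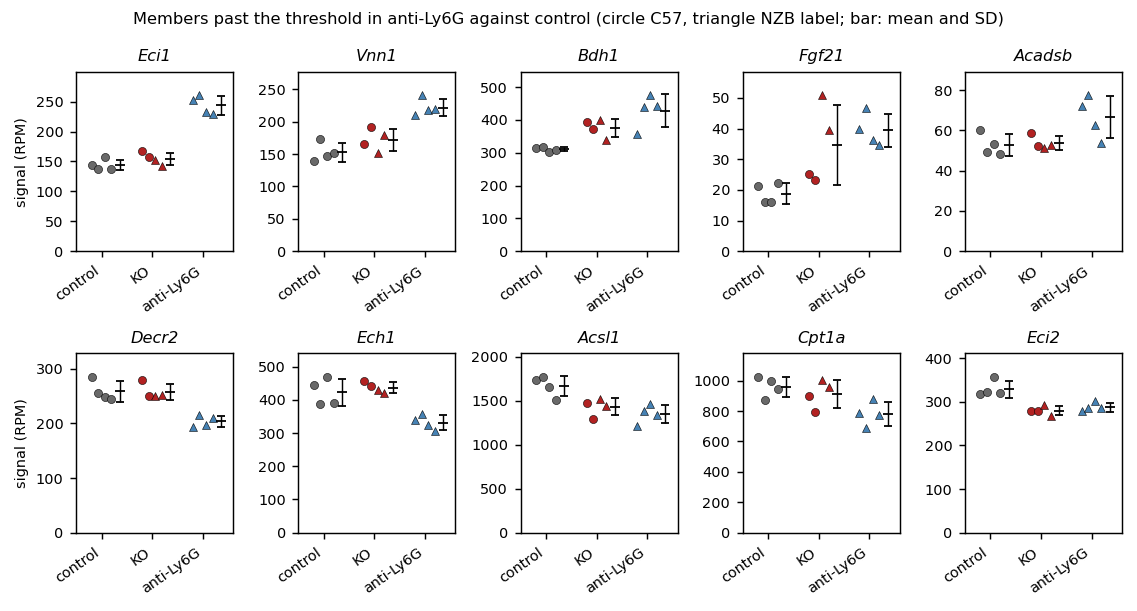
Signal in RPM (vertical axis, from 0) of the 10 genes called in anti-Ly6G against control, with 1 point per pool, circles for the C57 and triangles for the NZB mitochondria label, and bars for the mean and SD of 4 pools. Eci1 and Vnn1 are above, and Decr2 and Ech1 below, both other groups in every anti-Ly6G pool.

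Markers of other cells moved with the anti-Ly6G group. Over all genes 15.3% were called lower and 15.1% higher, the shares beside which the marker counts here stand. Of 15 listed neutrophil markers only 5 were measured. Of these 5, 4 were lower than in control, and Cxcr2 was not (1.85 ± 0.0947 RPM in control, 1.81 ± 0.414 RPM in anti-Ly6G). The summed signal of the 5 was 16.4 to 30.2 RPM in control, 26.5 to 30.7 in KO and 7.11 to 12.8 in anti-Ly6G. Ly6g itself was not among the measured markers. Of 16 monocyte and macrophage markers 9 were lower (summed signal 556 to 1110 RPM in control, 795 to 1256 in KO and 294 to 410.2 in anti-Ly6G). Lower markers also numbered 4 of 10 for Kupffer cells, 7 of 14 for stellate cells and fibroblasts, 3 of 11 for endothelium and 2 of 3 for bile duct. Of 15 hepatocyte markers 2 were lower and none higher, and their summed signal was 141310 to 163880 RPM in control and 144720 to 186850 in anti-Ly6G. In bulk liver, fewer cells of a type and less RNA per cell cannot be told apart, and the part of these markers in the results above was not tested.

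The KO and anti-Ly6G groups were also compared with each other. Of the 33 genes, 4 were called, against 26.8% of all genes (13.6% higher and 13.1% lower in KO, or 1608 and 1549 genes, and 2333 and 701 with libraries scaled to equal sums). Eci1 and Vnn1 were lower in KO, with log2 fold changes of -0.65 ± 0.072 (SE) and -0.37 ± 0.086 (SE) and adjusted p-values of 5.23e-05 and 0.00721 (limma). Ech1 and Decr2 were higher in KO, at 0.40 ± 0.078 (SE) and 0.34 ± 0.07 (SE), with adjusted p-values of 0.00259 and 0.00328 (limma). For all 4 genes the pools of both groups were apart (2 above and 2 below in KO), against 27.3% of all genes, 13.8% above and 13.5% below. At an unadjusted p under 0.05 stood 7 of the 33 and 39.6% of all genes. The median log2 fold change was -0.041 over the 33 genes and -0.012 over all genes. Fgf21 (-0.25), Bdh1 (-0.18), Eci2 (-0.041) and Acsl1 (0.085) were not called between KO and anti-Ly6G. With KO 3 and KO 4 alone, which share the NZB label with the anti-Ly6G pools, Eci1 (-0.72), Vnn1 (-0.42), Ech1 (0.36) and Decr2 (0.31) remained called, so these differences were present within that label.

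The KO pools differed among themselves along the mitochondria label, and this comparison was made after the values were seen. Pdk4 (ENSMUSG00000019577, chr6:5483351-5496309, minus strand, GRCm38), the kinase that shuts off pyruvate dehydrogenase when fat is burned, was at 59.0 and 61.0 RPM in KO 1 and KO 2 (C57) and at 136 and 129.6 RPM in KO 3 and KO 4 (NZB). It was at 61.3, 55.3, 68.7 and 73.0 RPM in control and 77.6, 92.6, 53.5 and 71.2 RPM in anti-Ly6G. KO 3 and KO 4 were the highest of the 12 pools, while KO 1 and KO 2 lay among the control pools and the anti-Ly6G pools, which carry the NZB label as well, overlapped control.

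KO 3 and KO 4 were also the highest pools for the acyl-CoA thioesterases Acot1 (cytosolic) and Acot2 (mitochondrial) and for Ehhadh. Acot1 was at 128 and 108 RPM in KO 1 and KO 2, 209 and 200.2 RPM in KO 3 and KO 4, 116, 109, 152 and 133 RPM in control and 132, 135, 168 and 129 RPM in anti-Ly6G. Acot2 was at 37.3 and 35.6 RPM in KO 1 and KO 2, 70.2 and 61.7 RPM in KO 3 and KO 4, 29.9, 29.3, 39.0 and 44.6 RPM in control and 33.4, 39.3, 55.7 and 56.98 RPM in anti-Ly6G. Ehhadh was at 2128 and 1792 RPM in KO 1 and KO 2, 3523 and 3184 RPM in KO 3 and KO 4, 2108, 2068, 2229 and 2311 RPM in control and 2144, 1548, 2720 and 1988 RPM in anti-Ly6G. KO 1 and KO 2 lay among the control pools for Acot2, while KO 2 was below all control pools for Acot1 and Ehhadh. Reads of Acot1 and Acot2 are partly shared, with 75.7% and 57.5% of their 25-base words unique, so their values are not independent of each other.

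KO 3 and KO 4 were the 2 highest of 12 pools for 4 of the 33 genes, against 3.38% of all genes, and the 2 lowest for Hadh and Acads, against 4.89% of all genes. Hadh, the mitochondrial hydroxyacyl-CoA dehydrogenase, was at 486 and 444 RPM in KO 1 and KO 2 and 402 and 388 RPM in KO 3 and KO 4. Control 4 was close to these at 408 RPM, and the lowest anti-Ly6G pool was at 433 RPM. Acads was at 196.6 RPM in both KO 3 and KO 4, with anti-Ly6G 1 at 199 and control 4 at 204 RPM. Both of these lowest ranks thus rest on small gaps. With 2 pools against 2, limma called none of the 33 genes and 0% of all genes. At an unadjusted p under 0.05 it found 8 of the 33 and 9.84% of all genes. edgeR called 0 of the 33, DESeq2 called 4 (Pdk4, Acot1, Fgf21 and Ehhadh), and limma on the 4 KO pools alone called these and Acot2. Over all 11791 genes edgeR called 0, DESeq2 130 and limma on the KO pools alone 392. The log2 fold changes of KO 3 and KO 4 against KO 1 and KO 2 were 1.14 ± 0.19 (SE) for Pdk4, 0.88 ± 0.18 (SE) for Fgf21, 0.84 ± 0.25 (SE) for Acot2, 0.80 ± 0.16 (SE) for Acot1 and 0.78 ± 0.20 (SE) for Ehhadh. Their adjusted p-values ran from 0.0785 for Pdk4 to 0.253 for Acot2 (limma). The 2 pools of each label did not overlap for 22 of the 33 genes (16 above and 6 below in NZB), against 53.9% of all genes, 27% above and 26.9% below.

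Other members had smaller differences. Cpt1a was 0.22, Hadha 0.26, Acadvl 0.02, Acadm -0.051, Bdh1 -0.058 and Vnn1 -0.11 on the log2 scale. Of these, Hadha was among the 8 genes with an unadjusted p under 0.05, and the pools of the labels were apart for Hadha and Cpt1a. Scaling to equal library sums moved the median of all genes in this comparison to 0.113, against 0.0086 in the deposited scaling. Hepatocyte markers summed to 157860 to 169670 RPM in KO 1 and KO 2 and 132740 to 138240 in KO 3 and KO 4, and macrophage markers to 1211 to 1256 and 795 to 947 RPM. Kupffer cell markers summed to 595.5 to 630.1 RPM in KO 1 and KO 2 and 731 to 762 in KO 3 and KO 4, and endothelial markers to 203 to 234 and 261 to 351 RPM. Their part in the difference was not tested.

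**Figure D4:**
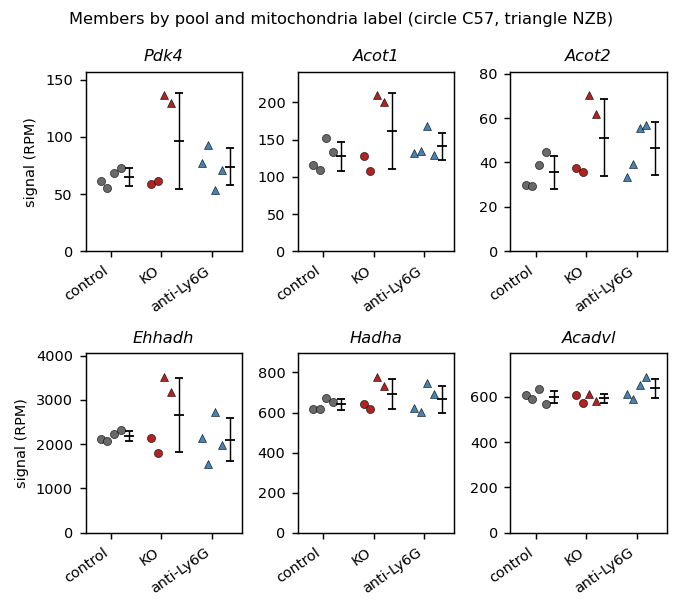
Signal in RPM (vertical axis, from 0) of 6 genes, with 1 point per pool, circles for the C57 and triangles for the NZB mitochondria label, and bars for the mean and SD of 4 pools. Pdk4, Acot1, Acot2 and Ehhadh are highest in KO 3 and KO 4, Hadha differs less, and Acadvl overlaps between labels.

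The split moved the mean of the KO group. With KO 1 and KO 2 alone, the log2 fold change against control was -0.098 for Pdk4, -0.10 for Acot1 and -0.16 for Ehhadh (adjusted p = 0.839, 0.782 and 0.726, limma), whereas with all 4 KO pools it was 0.47, 0.29 and 0.23. With KO 3 and KO 4 alone against anti-Ly6G, Pdk4 (0.87), Ehhadh (0.70) and Acot1 (0.55) were called higher. A fit with the mitochondria label as a term takes the size of the label from the KO pools and assumes it for the other groups. In anti-Ly6G against control it kept 2 of the 10 calls, Eci1 (0.89) and Vnn1 (0.65), and lost the other 8. It called Pdk4 (-0.97) and Ehhadh (-0.86) lower, which were not called without the term, while Fgf21 was at 0.18 with an adjusted p of 0.657 (limma).

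Other genes of the pathway were read from 5 lists, of which 107 of 113 genes were measured. PPARA itself, its coactivator Ppargc1a and 2 classical targets outside the 33 were not called in either comparison with control. Ppara was at 101 ± 11.03 RPM in control, 81.5 ± 7.72 RPM in KO and 96.7 ± 12.04 in anti-Ly6G, with log2 fold changes of -0.30 and -0.059 and adjusted p-values of 0.147 and 0.691 (limma). Its coactivator Ppargc1a differed by 0.24 and 0.067. The omega-hydroxylases Cyp4a10 and Cyp4a14 differed by 0.052 and -0.26 in KO and by -0.24 and -0.14 in anti-Ly6G. The level of Cyp4a10 is uncertain, since 47.7% of its 25-base words were unique and 41.6% were shared with Cyp4a32.

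In anti-Ly6G against control, 16 of the 107 rose and 15 fell, beside 15.1% and 15.3% of all genes. Fabp1, the liver fatty acid binding protein, was at 2402, 2658, 3109 and 3026 RPM in control and 3706, 5160, 4730 and 3644 RPM in anti-Ly6G, and Plin2, the coat protein of lipid droplets, at 1206, 1374, 1382 and 1527 and 1735, 1864, 1954 and 2049 RPM. All anti-Ly6G pools lay above all control pools for both, with log2 fold changes of 0.61 ± 0.13 (SE) and 0.47 ± 0.10 (SE) and adjusted p-values of 0.00392 and 0.00462 (limma). Of the 28 further PPARA targets 5 rose and 5 fell. Fabp2 (0.71) rose, while Lpl, the lipoprotein lipase (-1.60), and Retsat, a retinol saturase (-0.68), fell. Cyp4a12a (2.63) rose and Cyp4a32 (-1.15) fell, but only 32.9% and 31.0% of their 25-base words were unique, so their levels are uncertain.

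The 32 further genes listed for mitochondrial oxidation and carnitine synthesis also include transporters and synthetases found outside mitochondria. Of these 32 genes 7 rose and 3 fell. Acad8, the isobutyryl-CoA dehydrogenase of valine breakdown, was at -0.65 and the transporter Slc27a1 at -0.75. The synthetase Acsl5 was at 0.43, the carrier Slc25a45 at 0.78 and Mut, the methylmalonyl-CoA mutase, at 0.41. Of 20 further genes listed for peroxisomal oxidation and biogenesis, not all of them peroxisomal, 3 rose and 2 fell. Nudt7 (0.55), Acot4 (0.48) and the peroxin Pex11a (0.34) rose, and Acot12 (-0.37) and Amacr (-0.29) fell. Of 6 ketogenesis genes 1 rose, Bdh2 at 0.82. A list of 21 genes held PPARA, its partners and coactivators, other nuclear receptors such as Ppard and Nr2f2, and the corepressor Ncor1. In this mixed list none rose and 5 fell, Ppargc1b (-0.82), Ppard (-0.53), Crebbp (-0.49), Rxra (-0.28) and Nr2f2 (-0.27). Of the 8 fits that left out 1 pool, the call of Rxra held in 2, that of Nr2f2 in 3 and that of Pex11a in 4. The counts of these lists stand beside 15.1% higher and 15.3% lower over all genes.

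In KO against control 1 of the 107 was called, Ppargc1b, against 1.12% of all genes. Ppargc1b was at 13.1, 9.47, 8.14 and 7.40 RPM in control and 5.01, 5.01, 4.83 and 4.54 RPM in KO, with a log2 fold change of -0.88 ± 0.18 (SE) and an adjusted p of 0.0415 (limma). All KO pools lay below all control pools, but the call held in only 1 of the 8 fits that left out 1 pool. Fabp1 (0.20) and Plin2 (0.24) were not called in KO.

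**Figure D5:**
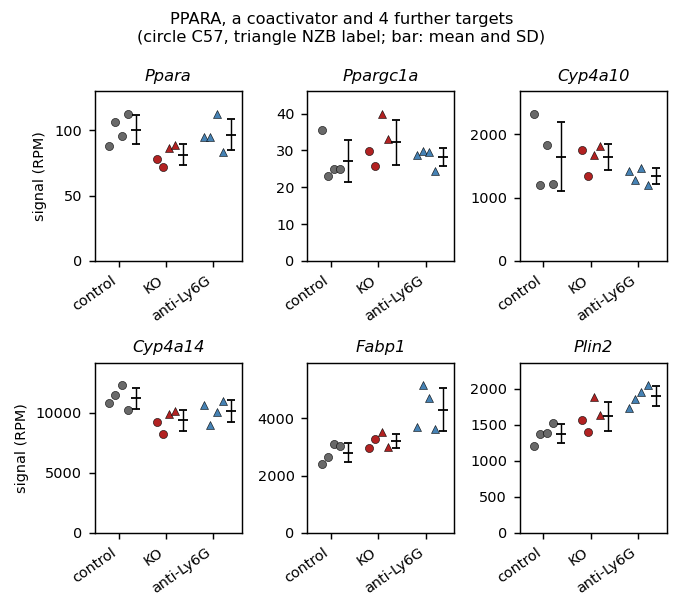
Signal in RPM (vertical axis, from 0) of Ppara, its coactivator Ppargc1a and 4 further targets, with 1 point per pool, circles for the C57 and triangles for the NZB mitochondria label, and bars for the mean and SD of 4 pools. Fabp1 and Plin2 are higher in every anti-Ly6G pool than in every control pool, and the other 4 overlap between anti-Ly6G and control.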

How the data were processed

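The authors deposited 1 table with a signal per gene for 12 libraries, a reads-per-million value scaled between libraries. Per the submitters' processing notes, the tools were Bowtie2 2.0.6, RSEM 1.2.3, cutadapt 1.2.1 and edgeR, with the build GRCm38 and no role given for any of them. Every value was a whole multiple (within 0.01 read) of what 1 read is worth in its library, so reads were recovered, at 13127902 to 22250697 per library. The stricter test of whole reads could be met in 4 of the 12 columns, and the others have few low values.

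Group differences were tested with limma 3.58.1 (trend, R 4.3.3) on log2(signal + 0.5), in 1 fit of 12 libraries with group as its term and 9 residual degrees of freedom. P-values were adjusted by Benjamini-Hochberg over 11791 genes, at a threshold of 0.05. A minimum group mean of 1 RPM removed 0 genes. Adding 0.5 slightly understates the change of low genes. The split of the KO pools by mitochondria label was added after the values were seen and used a fit with 4 groups. Alternatives were edgeR 4.0.16 and DESeq2 1.42.0 on the recovered reads, other pseudocounts, scalings and filters, a replicate block, the label as a term and leaving out each pool. The limma and edgeR steps were tested on simulated data.

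Positions, lengths, transcript words of 25 bases and principal transcripts came from GENCODE vM21 (GRCm38), and 11672 of the table's 11791 IDs were found there. Deviations of same-numbered pools from their group means had correlations of -0.209 to 0.172, over 0.1 in 4 of 12 pairs. These values cannot exclude pairing. As no label states it, the numbers were not taken to pair the pools. The genes, their roles, the pathway and marker lists and the rule for named genes (all 33 members, with full values for those called or of fixed interest, and up to 5 called genes of lowest p per list) were chosen with earlier results of these data known. Adipocyte markers were represented by Fabp4 alone, lower in anti-Ly6G, and muscle markers were not measured. Mapk13 was not analysed here. Some genes of the pathway lists are not reported here and were left out of their counts.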

Additional observations from a re-analysis of the deposited data

Results flagged for a closer look

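In 7 of 99 groups of 4 pools, 1 pool stood far from the other 3 for 1 of the 33 genes (Dixon's gap test at 95%), where chance would give about 4.95. KO 2 was low for Acadl at 392.5 RPM. Control 4 was low for Hadh at 408.2 RPM. KO 4 was low for Acaa2 at 695.1 RPM. Anti-Ly6G 3 was high for Acot1 at 167.7 RPM. Control 3 was high for Eci2 at 357.3 RPM. Anti-Ly6G 4 was low for Decr1 at 316.8 RPM. KO 1 was high for Decr2 at 279.8 RPM. No pool appeared more often than in 1 of these 7 groups.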

How the results depend on the processing

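In KO against control limma called 0 throughout, also with 1 pool left out (0 to 0), and DESeq2 called 3. In anti-Ly6G against control the count of 10 became 4 with the mitochondria label as a term, and ran from 6 to 12 when 1 pool was left out. Of 18 alternatives, the call was lost in 8 for Acadsb, 7 for Cpt1a, 6 for Eci2, 3 for Acsl1, 1 each for Bdh1, Decr2, Ech1 and Fgf21, and 0 for Eci1 and Vnn1. In KO against anti-Ly6G the count of 4 became 9 with the label as a term and 7 with KO 3 and KO 4 alone. In the split of the KO pools the count of 0 became 4 with DESeq2 and 5 with the KO pools alone. No label says that the replicate numbers pair the pools, and with them as a block the counts were 0, 11 and 6. Over all genes, KO against control gave 132 calls, and 577 with DESeq2, 20 with the replicate block, 79 with the label as a term, 58 with KO 1 and KO 2 alone and 3 to 319 with 1 pool left out, where each of the 8 pools moved the count by over 1.5 times. Anti-Ly6G against control gave 973 with the label as a term, and KO against anti-Ly6G 2041 with KO 3 and KO 4 alone. The split of the KO pools gave 130 with DESeq2, 392 with the KO pools alone and 0 to 1 with 1 pool left out, where the lone pool of a label is assumed to vary like the others. No filter on low signal gave the same genes as the minimum used and was not run apart.

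Of 1465 values of named genes under the alternatives, 1330 kept their direction and side of the threshold, 73 lost a call, 27 gained one and 35 changed sign. All sign changes were in uncalled values, with 1 exception, Pdk4 in anti-Ly6G against control with the label as a term (-0.97). In KO against control, the label as a term and KO 1 and KO 2 alone gave the same values: -0.10 for Acot1, -0.037 for Cyp4a10, 0.034 for Decr2, -0.16 for Ehhadh and -0.098 for Pdk4. Equal library sums gave 0.065 for Decr2 and 0.042 for Hsd17b4, and Decr2 was at 0.0011 with median-ratio scaling and 0.00013 with DESeq2. With 1 pool left out, the ranges were -0.012 to 0.094 for Acadsb, -0.079 to 0.24 for Cyp4a10, -0.040 to 0.047 for Decr2 and -0.054 to 0.0097 for Hsd17b4. In anti-Ly6G against control, the label as a term gave -0.65 for Acot1, -0.48 for Acot2, -0.012 for Hadhb and -0.32 for Ppargc1a. With 1 pool left out, the ranges were -0.21 to 0.056 for Ehhadh, -0.14 to 0.0076 for Ppara and -0.0031 to 0.20 for Ppargc1a. In KO against anti-Ly6G, Fgf21 was at 0.19 with the label as a term and with KO 3 and KO 4 alone. In the split of the KO pools, Vnn1 ran from -0.24 to 0.010 with 1 pool left out. The causes were not tested. The results are limited by 4 pools of 2 animals per group and by a label tied to the groups, and at the lowest member the depth was 270 reads.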
